A study of Mus musculus with 1 sample.

Results

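The cells described here are bone marrow progenitors that carried transcripts of Dntt, the polymerase that adds bases at antigen receptor joints, together with transcripts of the B-lineage program. They were chosen from their own counts. A cell was taken when it held at least 2 unique molecular identifiers (UMIs, each standing for 1 captured transcript) of Dntt and at least 1 UMI of any of Ebf1, Rag1 and Vpreb3. The rule found 55 of the 7645 cells that passed the study's cell filter, a share of 0.719% with an exact Clopper-Pearson 95% interval from 0.542% to 0.935%. The cells set against them were the 220 cells with at least 2 Dntt UMIs and no UMI of the other genes of the rule, which made up 2.88% of the cells kept and are called the reference cells below. A further set, 556 cells with at least 2 UMIs of Flt3 and none of Dntt, served as a set outside the Dntt cells.

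B lymphocytes arise in the bone marrow from multipotent progenitors that express the receptor Flt3 and then the interleukin-7 receptor. E proteins, Foxo1 and Ebf1 switch on the early B-cell genes, and Pax5 then fixes the cells in the B lineage. While Rag1 and Rag2 cut the immunoglobulin heavy chain locus and Dntt diversifies its joints, the cells make the surrogate light chain from Vpreb and Igll1, which pairs with the first heavy chain and with Cd79a and Cd79b to form the pre-B receptor. Vpreb3 encodes a relative of the surrogate light chain proteins.

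The data are 1 single-cell library, so there is no replicate and no test was run. The library was made from lineage-negative Kit-positive cells sorted from femora and tibiae of C57BL/6 mice whose Brd9 alleles were floxed (Brd9fl/fl) and not deleted, the control group of a study of Brd9 loss in blood stem cells. The labels give pIpC, an inducer of interferon that is used to switch on Mx1-Cre, at 20 mg/kg in 3 injections given on alternate days, with collection 8 weeks later, and the control cells received it too. The labels name a CD45.2(+) donor and a CD45.1(+) CD45.2(-) recipient, with pIpC begun 4 weeks after transplantation, and a kit for bulk RNA, whereas the methods name control mice with no word of a transplant and a 10x Chromium 3′ library; which applies was not settled, and neither the age nor the number of mice behind this library is given. The control mice lack Mx1-Cre, so Brd9 was not deleted by design, and every comparison is between cells of 1 control library. Levels are summed UMIs of a set of cells per 1000000 UMIs of that set (CPM). Intervals are exact 95% intervals, Poisson for a level and conditional binomial for a ratio of levels, and they cover counting error only, not differences between mice.

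Depth differed between the sets. The 55 cells held between 3631 and 38049 UMIs with a median of 12083, the 220 Dntt cells without the B-lineage genes a median of 16180, and all cells kept a median of 18696. The shallower depth did not come with fewer genes once depth was made equal. After each cell was thinned at random to 5000 UMIs, 54 of the 55 cells could be used and held a median of 1975 genes, against 1972 in 219 of the Dntt cells without the B-lineage genes.

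Some of the 55 cells also carried genes of other blood lineages, and this touches several results below. Of the 55, 11 held at least 10 UMIs of a granule, red cell, platelet, basophil or plasma cell gene: 2 of Elane, 4 of Car1, 2 of Pf4, 2 of Mcpt8 and 1 of Jchain. Scrublet, which scores cells for being 2 cells in 1 droplet, marked 7 of the 55 (12.7%), all of them among these 11, and 9 of the 220 Dntt cells without the B-lineage genes (4.09%). In that set 24 of 220 cells (10.9%) held such UMIs. The part of these cells in each result was not tested, and values without them are given beside the results they moved most. No cell barcode occurred more than once in the library.

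The name of the set was checked against marker genes. Of 6 pro-B markers, Ebf1 and Vpreb3 are in the rule, and the other 4 (Vpreb1, Igll1, Cd79a and Pax5) were all detected in the 55 cells. These 4 summed to 499 CPM, against 7.41 CPM in the Dntt cells without the B-lineage genes and 4.54 CPM in the Flt3 cells. At least 1 UMI of them was seen in 31 of 55 cells, so the other cells carried the name by the rule's own genes only. Of 4 mature B markers, Fcer2a was at 0 and Ms4a1 had 1 UMI, and 4751 of the 4775 UMIs of that list lay in 1 cell. Ighd went the other way, with 17 UMIs in 12 of 55 cells and at most 3 in a cell. Its level was 22.2 CPM, against 5.88 CPM in the reference. Of 6 T and innate lymphoid markers 5 were detected, at a sum of 288 CPM against 255 CPM in the reference, and the defining gene Cd3e was at 0 in both.

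The cut was low, and the cells spread widely above it. Dntt stood at 2 UMIs in the lowest cell, 24 in the median cell and 70 in the highest, against 2, 8 and 80 in the Dntt cells without the B-lineage genes. The other side of the rule was met by a single UMI in 20 cells, while the highest cell held 81 UMIs of Ebf1, Rag1 and Vpreb3 together. Just outside, 5 cells had 1 Dntt UMI and a UMI of these genes, and 25 had no Dntt UMI and at least 1 of these. The cells just inside the rule by 1 B-lineage UMI had Il7r at 223 CPM, those with 2 or more had 257 CPM, and the 5 cells just outside on Dntt had 10.9 CPM, from 1 UMI.

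The genes of the rule lie apart in the genome. In the GENCODE M21 annotation of GRCm38, Dntt (ENSMUSG00000025014) is at chr19:41029275-41059525 on the plus strand, Ebf1 (ENSMUSG00000057098) at chr11:44617317-45008091 on the plus strand, Rag1 (ENSMUSG00000061311) at chr2:101638282-101649501 on the minus strand and Vpreb3 (ENSMUSG00000000903) at chr10:75943057-75949657 on the plus strand. Rag1 overlaps the gene B230118H07Rik on the same strand, so reads of these genes can be confused. Igll1 (chr16:16860671-16863985) and Vpreb1 (chr16:16868403-16870843) are neighbours on the minus strand of chromosome 16.

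Promoter sequence is shown for Igll1, Cd79a and Vpreb3. Within the set, most UMIs of these genes lay in the 16 cells that held Vpreb3 together with Ebf1. They were not limited to the set: of all cells kept, 61 had a UMI of Igll1, 62 of Cd79a and 40 of Vpreb3. Each line gives RefSeq sequence of GRCm38.p6 before the gene's start site, 5′ to 3′ on the gene's strand, with matches to the E-box CAGGTG (bound by E proteins) or the octamer ATGCAAAT in capitals, on either strand. The windows are chr16:16863986-16864235 on the minus strand for Igll1, chr7:24897247-24897380 on the plus strand for Cd79a, which stops before the first exon in GENCODE, and chr10:75948050-75948299 on the plus strand for Vpreb3, which lies inside the span of the gene in GENCODE but meets none of its exons there.
Igll1: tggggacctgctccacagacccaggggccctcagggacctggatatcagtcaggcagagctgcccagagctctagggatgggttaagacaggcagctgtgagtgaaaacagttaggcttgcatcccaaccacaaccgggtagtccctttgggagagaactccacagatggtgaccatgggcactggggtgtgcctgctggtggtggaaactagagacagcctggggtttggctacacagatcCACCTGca
Cd79a: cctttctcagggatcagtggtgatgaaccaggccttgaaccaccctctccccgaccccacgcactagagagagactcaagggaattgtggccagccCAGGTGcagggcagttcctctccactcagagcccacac
Vpreb3: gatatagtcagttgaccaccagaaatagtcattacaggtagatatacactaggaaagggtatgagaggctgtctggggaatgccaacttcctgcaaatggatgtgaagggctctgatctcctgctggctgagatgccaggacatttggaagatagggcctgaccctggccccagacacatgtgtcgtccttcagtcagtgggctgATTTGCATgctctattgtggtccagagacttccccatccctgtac
Of 14 genes looked up, all 14 had a promoter in the table. The E-box CAGGTG was found in the 250 bases before the start of 6 of them (Vpreb1, Vpreb2, Igll1, Cd79a, Blnk and Rag1) and in 17.2% of all 32851 promoters of the same length. The octamer was found before 2 of the 14 genes, Vpreb3 and Blnk, and in 1.6% of all promoters. The EBF motif, TCCC and GGGA with any 2 bases between, which reads the same on both strands, was found before 1 of them, Foxo1, and in 0.779% of all. These are matches of letters and no sign of binding in these cells.

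Across the genome, the 55 cells differed little from the Dntt cells without the B-lineage genes in most genes. Of 7935 genes with at least 50 UMIs in both sets together and outside the rule, 174 (2.19%) had a level at least 2-fold higher and 191 (2.41%) a level at least 2-fold lower, and the median fold was 0.98. Since the rule chose these cells by their transcripts, the folds below are descriptions.

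Genes of the pre-B receptor and its signalling included several with high folds. Of 14 genes on this list 12 had enough UMIs, of which 7 were at least 2-fold higher, none was 2-fold lower, and the median fold was 3.54. These 7 were Vpreb1, Vpreb2, Igll1, Cd79a, Cd79b, Ighm and Blnk. The kinases and adaptors Syk, Btk, Lyn and Plcg2, which many blood cells express, lay between these limits, as did Cd72.

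Cd79a (ENSMUSG00000003379), the signalling chain of the pre-B receptor, was detected in 25 of the 55 cells, from 0 to 23 UMIs with a median of 0. In the Dntt cells without the B-lineage genes it was detected in 1 of 220 cells, with 2 UMIs. The level was 190 CPM against 0.511 CPM, a ratio of 371 (interval 101 to 3092) that rests on those 2 UMIs in the reference. No UMI of Cd79a was seen in the 556 Flt3 cells, which allows a share of cells with a UMI of up to 0.54%, taken as 3 cells of 556.

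The surrogate light chain genes were present in fewer of the cells. Vpreb1 was detected in 20 of 55 cells, with up to 28 UMIs in a cell, and stood at 186 CPM against 6.39 CPM (29.1-fold, interval 18.9 to 46.4). Vpreb2 was detected in 19 cells, with up to 10 UMIs, and in none of the 220 reference cells, so its level was at least 111-fold higher, counted against a floor of 3 UMIs over that set. The longest Vpreb1 and Vpreb2 transcripts are identical at 97.5% of 759 aligned bases, so reads can be shared or lost between these genes and the split between them is uncertain. Igll1 was detected in 6 cells only, with up to 17 UMIs, at 83.7 CPM against 0.511 CPM.

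A few UMIs of Vpreb1 were also present in cells outside the lymphoid lineages. At 5000 UMIs per cell Vpreb1 was seen in 16 of 54 of the cells (29.6%, interval 18.0% to 43.6%), in 2 of 219 Dntt cells without the B-lineage genes (0.913%) and in 13 of 1381 cells with at least 10 UMIs of the red cell genes Klf1 and Car1 (0.941%, interval 0.502% to 1.60%). Without thinning these shares were 36.4%, 7.27% and 3.62%, at median depths of 12083, 16180 and 31617 UMIs. Cd79a at 5000 UMIs was seen in 21 of 54 cells (38.9%) and in none of the 1381 red cell progenitors. Thinned, the Vpreb1 share in the Dntt cells without the B-lineage genes was close to that in red cell progenitors, from 2 cells and with an interval up to 3.26%, and unthinned it was higher at the lower depth.

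Blnk and Blk, an adaptor and a kinase of the pre-B receptor, reached further down. Blnk was detected in 28 of 55 cells, with a median of 1 and up to 10 UMIs, and in 33 of 220 reference cells, at 82.4 CPM against 17.1 CPM (4.81-fold, interval 3.36 to 6.89). Blk, whose UMIs were too few for the gene minimum, was detected in 15 cells against 7 of 220, at 43.2 CPM against 2.56 CPM. At 5000 UMIs per cell Blnk was seen in 33.3% of the cells, 7.76% of the reference cells and 0.0724% of the red cell progenitors. Mzb1, a chaperone of immunoglobulin assembly, was detected in 28 cells at 119 CPM against 0.511 CPM.

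**Figure D1:**
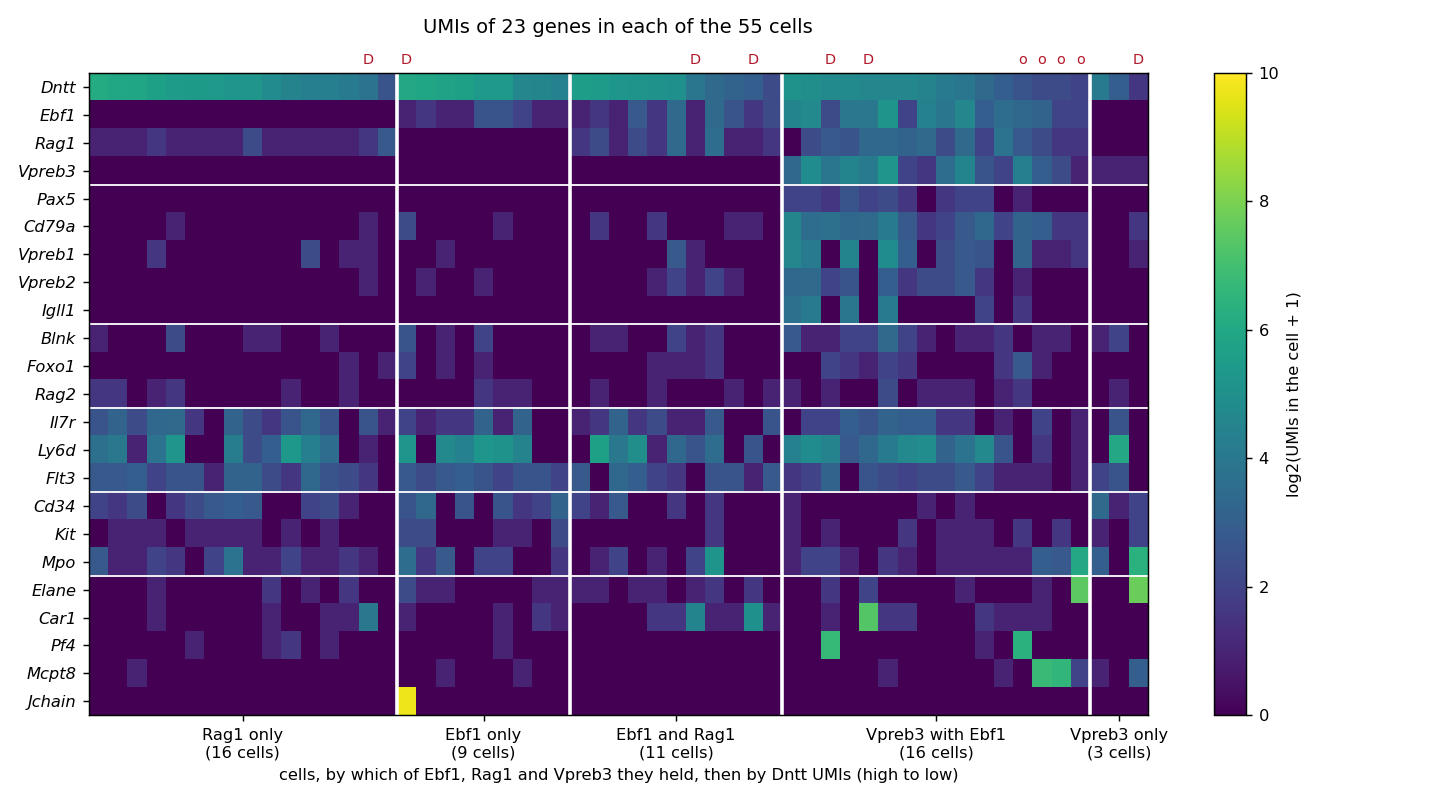
UMIs of single genes (rows) in each of the 55 cells (columns), as log2(UMIs + 1), with cells grouped by which of Ebf1, Rag1 and Vpreb3 they held. Letters above the columns mark the 11 cells with at least 10 UMIs of Elane, Car1, Pf4, Mcpt8 or Jchain, D where Scrublet also marked the cell. Pax5, Cd79a, Vpreb1 and Igll1 UMIs gather in the 16 cells with Vpreb3 and Ebf1, while Il7r, Ly6d and Flt3 run through the groups.

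Ighm needs its own account because 1 cell decided its sum. The immunoglobulin heavy chain constant gene stood at 3869 CPM in the 55 cells against 389 CPM, but 2401 of its 2959 UMIs (81.1%) lay in 1 cell, which also held all 852 Jchain UMIs, 4750 of the 4757 Igkc UMIs, all 61 UMIs of kappa variable genes and all 34 of lambda constant genes, and which Scrublet marked. Without the 11 cells that carried other lineages' genes the fold of Ighm was 2.20, and that of Igkc 0.808. Over single cells Ighm ran from 0 to 2401 UMIs with a median of 9, against a median of 6 and a highest value of 23 in the reference cells. Ighm was detected in 53 of 55 cells and in 207 of 220 reference cells, so most cells of both sets carried it. Relative to its own depth, the median cell held 794 CPM, against 344 CPM in the reference.

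The list as a whole followed that cell. Summed over the 14 genes the level was 6.93-fold higher (interval 6.60 to 7.28), with 64.2% of the UMIs in the cell with the most, and 2.81-fold without the 11 cells. Heavy chain variable genes had 51 UMIs in 16 of the 55 cells, of which 28 lay in 1 cell, against 37 UMIs in 22 of 220 reference cells. No heavy or kappa joining segment had a UMI in any of these sets.

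Among 20 B-lineage transcription factors, few differed 2-fold between the sets. Of 13 with enough UMIs, Foxo1, Bach2 and Zfp36l1 were at least 2-fold higher and none was 2-fold lower, with a median fold of 1.13.

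Pax5 (ENSMUSG00000014030, chr4:44524757-44710487), the commitment factor, had 31 UMIs in 11 of the 55 cells, with up to 5 in a cell, and none in the 220 reference cells or the 556 Flt3 cells. The level of 40.5 CPM was thus at least 52.9-fold higher than in the reference. Over all 7645 cells kept Pax5 had 34 UMIs in 12 cells, so 1 cell with 3 UMIs lay outside the set. Pou2af1, a coactivator of octamer-binding factors, had 30 UMIs in 10 cells and none in the reference (at least 51.2-fold).

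Foxo1, which drives Rag and Il7r expression in early B cells, was detected in 17 of 55 cells and in 25 of 220 reference cells, at 41.8 CPM against 7.16 CPM (5.85-fold, interval 3.41 to 10.1). Its counts were low in both sets, with at most 6 UMIs in a cell, and without the 11 cells the fold was 4.10. At 5000 UMIs per cell Foxo1 was seen in 22.2% of the cells, 2.74% of the reference cells and 1.23% of the red cell progenitors. Bach2, a repressor of plasma cell genes, was 2.19-fold higher (interval 1.34 to 3.49). Zfp36l1, an RNA-binding regulator of B-cell development, was 2.50-fold higher (interval 1.98 to 3.15).

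Other factors of the list were near equal. Ikzf1 (Ikaros) was detected in all 55 cells at 199 CPM against 158 CPM, and Tcf3, the E protein E2A, stood at 75.8 CPM against 67.2 CPM. Bcl11a, Myb and Mef2c had folds of 1.36, 1.31 and 1.09. Irf8, which also serves dendritic and monocyte fates, was lower at 297 CPM against 507 CPM (0.585-fold, interval 0.508 to 0.671).

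Of 13 recombination and end joining genes, 9 had enough UMIs, of which Rag2 and Xrcc6 were at least 2-fold higher. Rag2, the partner of Rag1, was detected in 22 of 55 cells and in 23 of 220 reference cells, at 39.2 CPM against 7.41 CPM (5.29-fold, interval 3.07 to 9.14). The highest cell held 4 UMIs and the highest reference cell 5, so the sets overlapped cell by cell. At 5000 UMIs per cell Rag2 was seen in 18.5% of the cells, 3.20% of the reference cells and 0.0724% of the red cell progenitors. Xrcc6, the Ku70 subunit of the end joining machinery, was detected in 51 cells at 289 CPM against 89.2 CPM (3.24-fold, interval 2.73 to 3.85). Its partner Xrcc5 had 14 UMIs, at 18.3 CPM against 12.8 CPM, and the median fold of the list was 0.939.

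Receptors and surface genes of lymphoid progenitors told the sets apart by Il7r and Ly6d rather than by Flt3. Of 15 genes, all with enough UMIs, Il7r, Ly6d and Cd24a were at least 2-fold higher and Cd34 was at least 2-fold lower, and the median fold was 1.36.

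Il7r (ENSMUSG00000003882), the receptor for interleukin-7, was detected in 43 of 55 cells, with a median of 2 and up to 10 UMIs. In the reference it was detected in 45 of 220 cells, with a median of 0 and up to 12 UMIs, and in the Flt3 cells in 9 of 556. Its level was 243 CPM against 34.5 CPM, 7.05-fold higher (interval 5.62 to 8.86), and 7.47-fold without the 11 cells. At 5000 UMIs per cell, 31 of 54 cells had a UMI (57.4%, interval 43.2% to 70.8%), against 23 of 219 (10.5%) and 2 of 1381 red cell progenitors (0.145%). Most of the cells thus carried Il7r, and most of the reference cells did not at this depth.

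Ly6d (ENSMUSG00000034634), a surface protein that marks the B-cell-biased lymphoid progenitors, was detected in 41 of 55 cells, with a median of 9 and up to 65 UMIs. In the reference it was detected in 43 of 220 cells, with up to 79 UMIs, so its high values were not limited to the 55 cells. The level was 982 CPM against 162 CPM (6.05-fold, interval 5.44 to 6.74). Thinned to 5000 UMIs, 64.8% of the cells, 13.2% of the reference cells and 0.145% of the red cell progenitors had a Ly6d UMI. Cd24a, the heat stable antigen of early B cells, was 2.13-fold higher (interval 1.83 to 2.47).

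Flt3 lay close in both sets. It was detected in 49 of 55 cells, with a median of 4 and up to 9 UMIs, and in 210 of 220 reference cells with a median of 3, at 284 CPM against 218 CPM (1.30-fold, interval 1.12 to 1.51). Notch1 stood at 149 CPM against 96.9 CPM, and Satb1, a chromatin organiser of lymphoid priming, at 264 CPM against 212 CPM. Of 13 lymphoid priming factors 11 had enough UMIs, and none of these was at least 2-fold higher or lower. The summed fold of all 13 was 0.993 (interval 0.929 to 1.06).

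Kit and Cd34, markers of immature progenitors, stood lower. Cd34 was detected in 29 of 55 cells with a median of 1 and up to 10 UMIs, against 212 of 220 cells with a median of 6 and up to 25 UMIs. Its level was 144 CPM against 360 CPM (0.400-fold, interval 0.326 to 0.486). Kit, the protein of the sort gate, was detected in 25 of 55 cells against 147 of 220, at 52.3 CPM against 92.5 CPM (0.565-fold, interval 0.397 to 0.785). Thinned to 5000 UMIs, Cd34 was seen in 37.0% of the cells against 79.0%, and Kit in 24.1% (interval 13.5% to 37.6%) against 36.1% (interval 29.7% to 42.8%), so the Kit intervals overlapped at equal depth. In the red cell progenitors these shares were 4.78% for Cd34 and 27.1% for Kit.

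**Figure D2:**
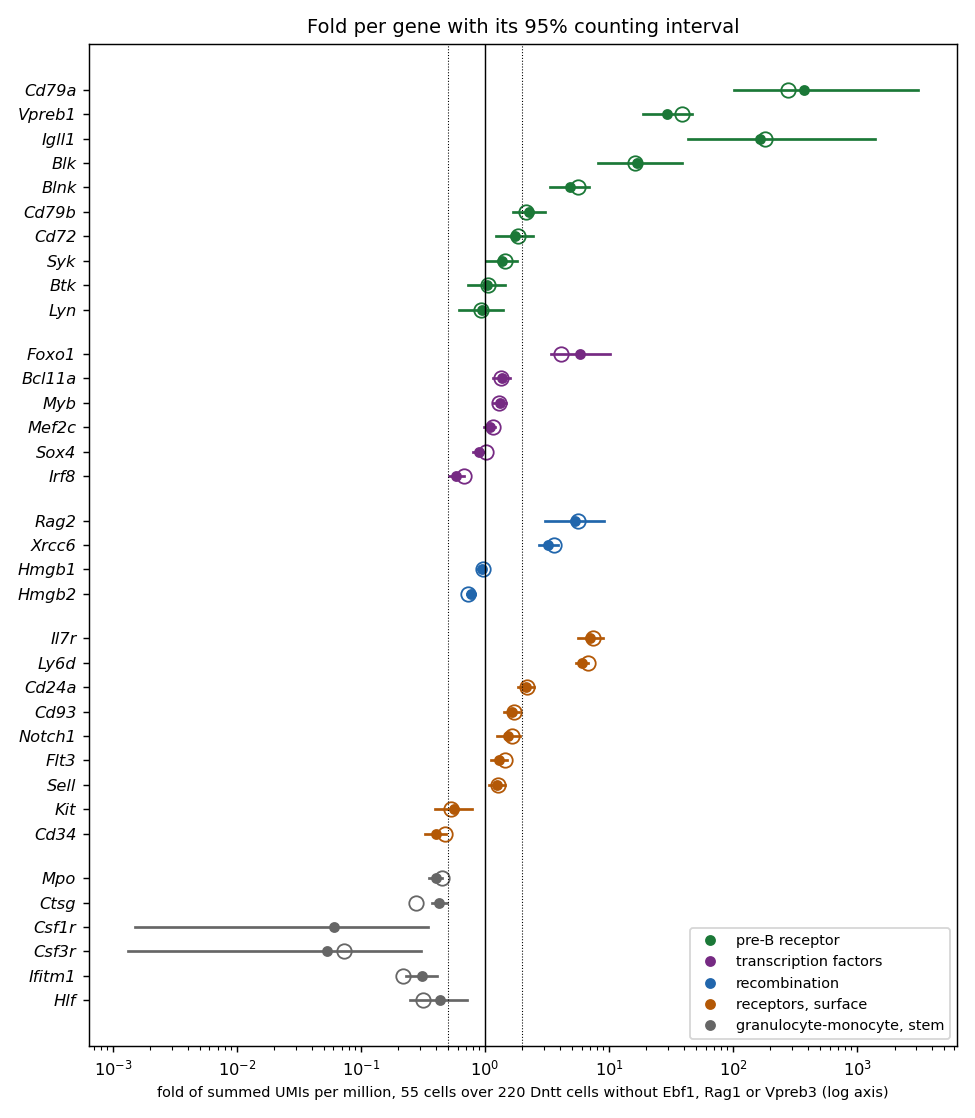
Fold of the summed level in the 55 cells over the 220 Dntt cells without Ebf1, Rag1 or Vpreb3, on a log axis, for genes of 5 groups (colours); filled points are folds, lines 95% counting intervals, and open circles the fold without cells that carried another lineage's genes (none is drawn for Csf1r, which then had no UMI). Dotted lines mark 0.5-fold and 2-fold. Il7r at 7.05 and Ly6d at 6.05 lie far from Flt3 at 1.30, and Cd34 lies at 0.400.

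The 55 cells held more Dntt than the reference, so levels were also compared at like Dntt counts. Among cells with 20 to 39 Dntt UMIs, 19 of the cells had an Il7r level of 304 CPM (interval 242 to 378) and 37 reference cells one of 95.7 CPM (interval 73.5 to 122). Among cells with at least 40, Il7r stood at 253 CPM (interval 192 to 327) in 15 of the cells. In 14 reference cells it stood at 144 CPM (interval 97.6 to 204), and these intervals overlapped. With 2 to 4, 5 to 9 and 10 to 19 Dntt UMIs, Il7r stood at 156, 96.8 and 221 CPM in 5, 6 and 10 of the cells. The reference had 12.9, 12.7 and 15.15 CPM at these counts, and higher levels only from 20 Dntt UMIs up. How far the gap between the whole sets went with Dntt was not tested. With at least 20 Dntt UMIs in both sets, a cut added after the data were seen, the fold of Il7r was 2.61, and 63 genes were at least 2-fold higher and 79 at least 2-fold lower.

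Ly6d differed at like Dntt counts from 10 UMIs up, and Cd34 at every count. With 2 to 4 Dntt UMIs Ly6d stood at 52.1 CPM in 5 of the cells, from 3 UMIs, against 83.2 CPM. Ly6d at 20 to 39 Dntt UMIs was at 1109 CPM against 231 CPM, and at 40 or more at 1225 CPM against 468 CPM. At 5 to 9 Dntt UMIs its 1037 CPM came mostly from 1 cell with 65 of 75 UMIs. Cd34 in the reference lay between 345 and 381 CPM at all Dntt counts, and in the 55 cells between 13.8 and 214 CPM. Kit was not lower in the same way, since its intervals overlapped at every Dntt count. With 40 or more Dntt UMIs Kit stood at 61.0 CPM against 32.4 CPM. Flt3 at 20 to 39 Dntt UMIs was 315 CPM against 310 CPM.

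**Figure D3:**
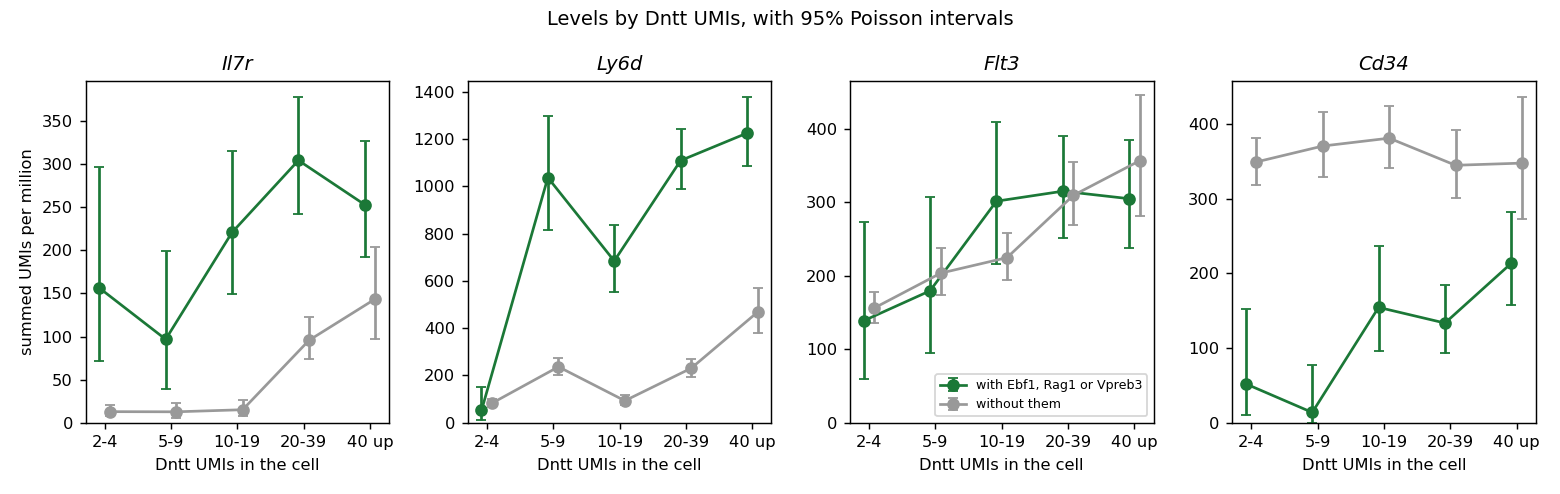
Level of Il7r, Ly6d, Flt3 and Cd34 (CPM) by the number of Dntt UMIs in the cell, for the 55 cells (green) and the 220 Dntt cells without the B-lineage genes (grey), with 95% Poisson intervals. Il7r in the reference cells stood at 12.9 CPM at 2 to 4 Dntt UMIs and 144 CPM at 40 or more, while Cd34 stayed above the green points at every count.

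The 55 cells were not alike. By the genes of the rule, 16 held Rag1 only, 9 Ebf1 only, 11 Ebf1 and Rag1 without Vpreb3, 16 Vpreb3 with Ebf1, and 3 Vpreb3 only, each with a single Vpreb3 UMI. Of the 16 cells with Vpreb3 and Ebf1, 15 also held Rag1. Dntt was lower in the cells with Vpreb3: the median was 36.5 UMIs in cells with Rag1 only, 41 with Ebf1 only, 31 with Ebf1 and Rag1, 18.5 with Vpreb3 and Ebf1 and 7 with Vpreb3 only. The median depths of the first 4 groups were 13368.5, 11338, 10379 and 11815.5 UMIs. Absence of a gene in a group can be a missed transcript, since 1 UMI was enough to place a cell.

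Later B-lineage genes that the rule did not use gathered in the cells with Vpreb3 and Ebf1. All 11 cells with Pax5 were among these 16. Of 6 such genes (Pax5, Cd79a, Vpreb1, Vpreb2, Igll1 and Pou2af1), the 16 cells held between 1 and 6 with a median of 4.5, whereas the 36 cells without Vpreb3 held between 0 and 3 with a median of 0. At least 4 of the 6 were seen in 10 of the 16 cells, in none of the 36, and in none of the 220 reference cells.

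Gene by gene, Cd79a was detected in all 16 cells with Vpreb3 and Ebf1, at 550 CPM (interval 460 to 653), and in 8 of the 36 cells without Vpreb3, at 27.7 CPM (interval 14.7 to 47.4). Vpreb1 was detected in 12 of the 16 at 529 CPM and in 7 of the 36 at 34.1 CPM. All 64 Igll1 UMIs lay in 6 of the 16. Blnk was less divided, at 144 CPM in 13 of the 16 and 53.3 CPM in 13 of the 36.

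Il7r and Ly6d were not set apart in the same way, while Cd24a was higher with Vpreb3 and Ebf1. The level of Il7r was 207 CPM (interval 153 to 274) with Vpreb3 and Ebf1, and 281 CPM (interval 235 to 333) without Vpreb3. Ly6d stood at 885 CPM and 1016 CPM (0.871-fold, interval 0.736 to 1.03), and without the 11 cells at 1413 CPM and 1091 CPM (1.30-fold, interval 1.08 to 1.55), so its direction turned. Cd24a stood at 487 CPM and 288 CPM (1.69-fold, interval 1.31 to 2.19), and 3.57-fold higher without the 11 cells. Myl10, a myosin light chain gene among the highest folds of the 55 cells (19.4-fold over the reference, 42 of 55 cells), was at 398 CPM in the first group and at 186, 225 and 653 CPM in cells with Rag1 only, Ebf1 only, and both. Without the 11 cells these levels of Myl10 were 610, 186, 318 and 796 CPM.

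Cd34, Notch1, Flt3, Irf8 and Ccr9 stood lower in the cells with Vpreb3 and Ebf1 than in those without Vpreb3, and Kit did not, at 46.6 CPM against 53.3 CPM (0.874-fold, interval 0.388 to 1.84). Cd34 had 3 UMIs in 3 of the 16 cells, at 12.7 CPM (interval 2.62 to 37.1), against 198 CPM in 23 of 36 cells without Vpreb3. Notch1, the receptor of T-lineage fate, stood at 67.7 CPM against 204 CPM (0.331-fold, interval 0.182 to 0.566), and Flt3 at 195 CPM against 347 CPM. Ccr9, a chemokine receptor of thymus-seeding cells, had 1 UMI against 15. Irf8 stood at 88.9 CPM against 328 CPM.

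Cells with other lineages' genes were more frequent among them: 6 of the 16 were among the 11 cells named above, against 4 of the 36. In the 10 cells that remained of the 16 and the 32 that remained of the 36, Cd79a stood at 714 CPM against 17.8 CPM, Vpreb1 at 907 CPM against 35.6 CPM, and Pax5 had 25 UMIs in 8 of 10 cells against none. Cd34 stood at 24.1 CPM against 224 CPM there (0.108-fold, interval 0.0218 to 0.325), Notch1 at 96.3 CPM against 219 CPM, and Dntt at 1646 CPM against 2827 CPM. The groups kept their order in these genes without the 11 cells. Mitotic genes differed as well, at 2376 CPM against 1251 CPM, but 76.4% of the UMIs in the 10 cells came from 1 cell.

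**Figure D4:**
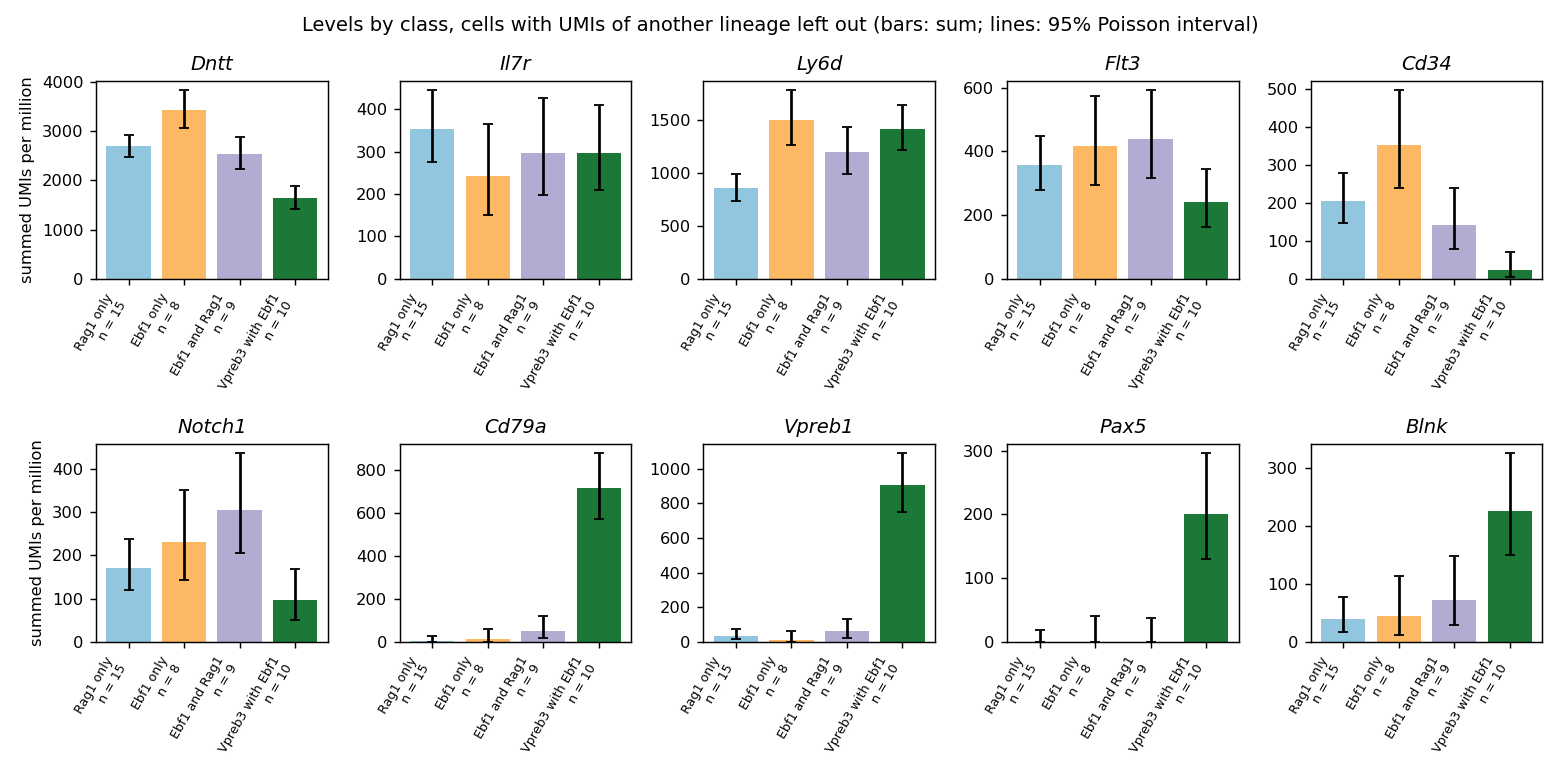
Levels (CPM) by the B-lineage genes of the rule that the cells held, with cells that carried another lineage's genes and the cells with Vpreb3 only left out; bars are summed levels and lines 95% Poisson intervals. Cd79a, Vpreb1, Pax5 and Blnk are highest with Vpreb3 and Ebf1, at 714, 907, 201 and 225 CPM, and Dntt and Cd34 are lowest there, at 1646 and 24.1 CPM.

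Several myeloid genes were lower in the 55 cells than in the reference. Of 14 granulocyte and monocyte genes 11 had enough UMIs, of which Mpo, Ctsg, Csf1r and Cebpa were at least 2-fold lower and S100a8 at least 2-fold higher, with a median fold of 0.714. Mpo, the myeloperoxidase of primary granules, was detected in 41 of 55 cells with a median of 1 and up to 82 UMIs, against 177 of 220 with a median of 4 and up to 260 UMIs, at 381 CPM against 952 CPM (0.400-fold, interval 0.354 to 0.451). At like Dntt counts Mpo was not lower throughout. With 2 to 4 Dntt UMIs it stood at 2761 CPM in 5 cells against 1220 CPM, and with 40 or more at 183 CPM against 158 CPM. With 5 to 9, 10 to 19 and 20 to 39 it was lower, at 27.6, 390 and 130 CPM against 1035, 573 and 1039 CPM. Csf1r, the macrophage growth factor receptor, had 1 UMI in the 55 cells and 85 in the reference (0.0602-fold, interval 0.00151 to 0.345), and Csf3r, the granulocyte counterpart, 1 and 96.

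A pair of cells with Elane weighed on this list. Summed over the 14 genes the level was 0.636-fold (interval 0.604 to 0.669), with 38.6% of the UMIs in 1 cell, and 0.433-fold without the 11 cells. Elane itself was 0.995-fold with them, and 388 of its 418 UMIs lay in 2 cells. S100a8 had 44 UMIs in 2 cells, and none once the 11 cells were left out.

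Other genes with low folds were Ms4a6c (0.230), F13a1 (0.205), Ccl9 (0.253), Wfdc17 (0.243), Gcnt2 (0.287), Vim (0.402), Lgals1 (0.425) and Ccl3 (0.397), several of them expressed by monocytes. Ifitm1 stood at 68.0 CPM against 219 CPM (0.311-fold, interval 0.231 to 0.412). Of the 10 stem cell genes only 3 had enough UMIs, and Ifitm1 and Hlf were at least 2-fold lower. Mecom had no UMI in the 55 cells and 33 in the reference.

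Among the genes with the highest folds outside the gene lists were Gimap4 (37.3-fold, interval 16.8 to 97.4) and Gimap7 (6.11-fold), GTPases of lymphocytes, Bfsp2 (11.6-fold), Myl4 (6.99-fold), Tmem108 (7.62-fold), the proteoglycan Sdc4 (7.45-fold), Chchd10 (5.42-fold), the lymphocyte adaptor Lax1 (6.21-fold), St3gal6 (5.70-fold) and Cmah (4.07-fold). Bfsp2 was at 313 CPM in the cells with Vpreb3 and Ebf1 and at 97.8, 46.5 and 79.6 CPM in those with Rag1 only, Ebf1 only, and both. Without the 11 cells these levels of Bfsp2 were 570, 103, 54.9 and 102 CPM. The folds of these genes lay between 4.73 and 25.7 without the 11 cells.

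Genes of basophils, platelets and red cells also had high folds, and these came from few cells. Prss34 was 80.3-fold and Mcpt8 16.1-fold higher, but without the 11 cells the folds were 1.26 and 0.644. Pf4 was 4.12-fold higher with 53.6% of its UMIs in 1 cell, and 1.23-fold without the 11 cells. Car1 was 3.45-fold higher, and 1.02-fold without them. The part that doublets have in these counts was not tested. Of cells with at least 10 UMIs of these genes, Scrublet marked all 4 with Car1, 1 of 2 with Pf4 and neither with Mcpt8.

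T-lineage and plasmacytoid dendritic genes were mostly sparse. Of 15 T and innate lymphoid genes 3 had enough UMIs, and Lck, a kinase also made by early B cells, was 2.88-fold higher (interval 2.05 to 4.01), in 34 of 55 cells. Trbc1, Trbc2, Gata3 and Bcl11b had between 3 and 6 UMIs each in the 55 cells. Of 10 plasmacytoid dendritic genes 6 had enough UMIs, and Siglech was 0.315-fold, from 4 UMIs against 65. Cox6a2, of the same list, was 1.87-fold higher.

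Cell cycle genes were at similar or slightly lower levels. None of 16 S phase genes was 2-fold apart, with a summed fold of 0.932 (interval 0.882 to 0.985), and none of 16 G2 and mitosis genes, with a summed fold of 0.719 (interval 0.677 to 0.764). Of cyclins and inhibitors only Ccnd1 was at least 2-fold lower (0.456), while Ccnd3, the cyclin of early B cells, was 1.67-fold higher (interval 1.38 to 2.01). Bcl2, which protects from cell death, was 0.538-fold (interval 0.438 to 0.654), inside the limits like the other 3 survival genes with enough UMIs.

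Genes downstream of cytokine receptors were near equal where counts allowed a value. None of 6 such genes with enough UMIs was 2-fold apart, and Jak1, Stat5a and Stat5b had folds of 1.25, 0.926 and 1.04. Socs2 and Cish, which STAT5 induces, each had 7 UMIs in the 55 cells and 3 in the 220, ratios of 11.9 with an interval from 2.73 to 71.5. Of 10 interferon-stimulated genes only 4 had enough UMIs, and none of these was 2-fold apart. The summed fold of all 10 was 0.822.

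Brd9 and its partners were compared because the study deletes Brd9. Like most of the 7935 genes compared, all 11 genes of the non-canonical BAF complex, CTCF and cohesin lay between 0.5-fold and 2-fold. Their median fold was 1.10, and of all genes compared 2.19% were at least 2-fold higher and 2.41% lower. Brd9 was detected in 24 of the 55 cells, at 44.5 CPM against 35.5 CPM (1.25-fold, interval 0.834 to 1.83), Ctcf at 203 CPM against 179 CPM, and Smarca4 at 162 CPM against 119 CPM (1.37-fold, interval 1.11 to 1.67).

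Set against the 556 Flt3 cells without Dntt, more genes differed. Of 9780 genes with enough UMIs, 619 (6.33%) were at least 2-fold higher in the 55 cells and 680 (6.95%) at least 2-fold lower, with a median fold of 0.998. Il7r was 206-fold higher, Ly6d 36.6-fold and Blnk 101-fold. Il7r and Blnk were near 0 in the Flt3 cells, with 13 and 9 UMIs, while Ly6d had 295 UMIs there in 29 cells. Flt3 was 1.89-fold higher although the Flt3 cells had been chosen by it, Cd34 was 0.601-fold, and the granulocyte and monocyte genes summed to 0.332-fold (interval 0.316 to 0.348). The Dntt cells without the B-lineage genes lay between these sets for Il7r, at 34.5 CPM against 1.18 CPM in the Flt3 cells, and for Mpo, at 952 CPM against 1961 CPM.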

How the data were processed

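The authors deposited raw UMI counts per gene and cell barcode for 1 library of 8817 barcodes, made per the submitters' processing notes with Cell Ranger 6.0.2 on mm10. The Brd9-deleted library is not analysed here. Following the study's methods, a cell was kept if its UMI total lay between 1000 and 50000, its number of genes between 1000 and 6500, and less than 7% of its UMIs were mitochondrial. Kept cells held 1592 to 49991 UMIs. The members and gene lists were chosen with earlier results of these data known.

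Counts were summed over the cells of a set and divided by its total. With 1 library no count model was fitted. Genes with at least 50 UMIs in both sets together were compared, and a level at least 2-fold apart was counted. Genes of the lists could be named, beside the 25 highest and 15 lowest folds, ranked by the interval bound nearest to 1 among genes with a UMI in at least 10% of the cells of the higher set. Doublet calls (Scrublet in scanpy 1.11.5, expected rate 6%) covered 265 cells (3.47%), which were kept since the methods name no removal. Shares said to be at 5000 UMIs were thinned to that depth (seed 1), leaving out 1 cell of each Dntt set. Other numbers of cells with a UMI are unthinned, from sets of unequal depth. Intervals came from scipy 1.17.1 and numpy 2.4.6 under python 3.11.15, and plots from matplotlib 3.10.9. The fold script was tested on simulated data. Promoters came from RefSeq (GRCm38.p6) and positions from GENCODE M21. The 12 alternatives tried cover the rule, the filters, doublets, weighting and depth.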

Additional observations from a re-analysis of the deposited data

How the results depend on the processing

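Each of 6 results was recomputed under the alternatives that apply to it: the share of cells (0.719%), the genes at least 2-fold higher (174) and lower (191), and the folds of the summed pre-B receptor genes (6.93), of Il7r (7.05) and of the summed granulocyte and monocyte genes (0.636). Of 65 values, 34 stayed close, 31 moved and none changed direction. Without the doublet calls the pre-B sum was 2.87 and the granulocyte sum 0.499. A stricter cell filter gave a pre-B sum of 7.93. With the rule on thinned counts the share was 0.490%, and the folds were 1.21 (pre-B), 3.501 (Il7r) and 0.846 (granulocyte). With at least 2 UMIs of Ebf1, Rag1 and Vpreb3 together the share was 0.458%, 423 genes were lower, and the sums were 3.20 and 0.512. Dntt at 4 UMIs or more gave 6.54 (pre-B), 5.45 (Il7r) and 0.247 (granulocyte). Without Rag1 in the rule the share was 0.510%, 319 genes were lower, and the sums were 8.93 and 0.811. With cells weighing equally the sums were 3.96 and 0.715. A minimum of 20 UMIs per gene, which tests more genes, gave 385 higher and 420 lower. Leaving out the 5 deepest cells of each set gave 2.54 and 0.852. The alternatives chosen after seeing the data were leaving out cells with other lineages' genes, which gave 2.81 and 0.433, and Dntt at 20 or more, which gave a share of 0.445%, 63 genes higher and 79 lower, Il7r at 2.61 and a granulocyte sum of 0.181.

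Of 517 values for 47 named genes, 401 stayed close, 107 moved and 9 changed direction. Igkc turned to 0.827 without doublet calls, 0.00625 on thinned counts, 0.835 with at least 2 B-lineage UMIs, 0.740 without the 5 deepest cells and 0.808 without cells with other lineages' genes. On thinned counts Ighm turned to 0.547 and Jchain to 0.0176, where the cell with Jchain had lost its only Ebf1 UMI and moved to the other set. Mcpt8 turned to 0.644 without cells with other lineages' genes and to 0.876 with Dntt at 20 or more. For the other changes the cause was not tested. No paired analysis was possible because there is 1 library, and no replicate could be left out. Depth limits the rule itself: of 54 cells thinned to 5000 UMIs, 37 still met it.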

Other observations

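Barcodes beyond the upper limits of the cell filter were not part of any comparison. Of these, 2 met the rule on Dntt and the B-lineage genes, with 68772 and 90872 UMIs. Together they held Dntt at 125 CPM, Ebf1 at 68.9 CPM, Cd79a at 93.96 CPM from 15 UMIs and Ly6d at 182 CPM from 29 UMIs, while Il7r had 1 UMI and Vpreb3 none.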
